A study of Homo sapiens with 6 samples.

Results

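The replacement histone variants are the histones whose messages carry a poly(A) tail and can be made outside S phase. The genes described here are 9 of this kind, H2AX, H2AZ1, H2AZ2, H2AJ, H3-3A, H3-3B, MACROH2A1, MACROH2A2 and H1-10, and they were chosen by symbol in a gene expression table that lists 34738 genes. All 9 had a row. They lie on 9 different chromosomes.

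As background, most histone protein is made in S phase from clustered genes without introns, whose messages end in a stem-loop in place of a poly(A) tail. Replacement variants enter chromatin through dedicated chaperones and remodelling complexes, and they mark damaged DNA, promoters, active genes or silenced chromatin. H2A.X is phosphorylated around DNA double-strand breaks, and foci of the phosphorylated form are a standard readout of DNA damage in tumour cells. H2A.Z flanks transcription start sites, H3.3 is laid down at active genes and at telomeres, macroH2A carries a large globular domain and is found in silenced chromatin, and H2A.J has been reported to accumulate in senescent cells.

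The libraries came from KHM-5M, a human thyroid cancer cell line. In 3 libraries GDF15 had been knocked down with a small interfering RNA delivered by a lipid transfection reagent, and these are called siGDF15. The other 3 are controls, called NC. GDF15 is a secreted stress cytokine of the TGF-β superfamily. The labels and the design text call NC a control or blank control, while the methods describe negative control cells and list a negative control siRNA, so whether NC received a transfection is not settled and an effect of transfection cannot be told apart from an effect of the knockdown. One display of such data in the study names another thyroid cancer line, TPC-1, whereas every label of these libraries names KHM-5M. The methods state biological replicates, but the labels do not say that they were separate cultures, so the p-values measure the spread between these libraries, which may in part be technical.

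Poly(A)-selected RNA was sequenced, and levels are given in FPKM, a fragment count corrected for transcript length and sequencing depth. Estimated counts per library summed to between 51738814 and 68025163, the lowest being siGDF15 replicate 2. These counts are estimates whose scale is not stated, and the commonest value from 1 to 20 was 4, so a count need not be a single read pair. GDF15 itself (ENSG00000130513, chromosome 19) stood at 22.4, 19.3 and 23.1 FPKM in NC and at 10.8, 10.5 and 10.7 FPKM in siGDF15 (log2 fold change -0.92, edgeR adjusted p = 2.4e-05). Of the thyroid markers PAX8, FOXE1, TG, SLC5A5 and NKX2-1, PAX8 and FOXE1 were above 1 FPKM on average and the other 3 were at 0.219 FPKM or below in every library. PAX8 was higher in siGDF15, from a mean of 59.1 to 79.4 FPKM (log2 fold change 0.53, edgeR adjusted p = 1.2e-04). FOXE1 was not called (log2 fold change 0.14, edgeR adjusted p = 0.22). TSHR was not analysed here. The epithelial keratins KRT8, KRT18 and KRT19 were present. The other epithelial markers were low. EPCAM had a mean of 1.86 FPKM in NC and 2.32 FPKM in siGDF15. CDH1 had means of 0.897 and 1.28 FPKM, with a log2 fold change of 0.61 (edgeR adjusted p = 0.049). That is just under the threshold of 0.05, and the FPKM groups of CDH1 overlapped. The other 4 epithelial markers were not called.

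The start regions of 6 members are shown first, those with a single RefSeq start whose upstream bases hold one of the boxes counted below. Each line gives the 100 bases before the transcription start from RefSeq on GRCh38.p14, 5′ to 3′ on the strand of the gene. Capitals mark the CCAAT box, written CCAAT or ATTGG by strand, and the TATA box spelled TATAAA.
H2AX, chr11:119095466-119095565, minus strand: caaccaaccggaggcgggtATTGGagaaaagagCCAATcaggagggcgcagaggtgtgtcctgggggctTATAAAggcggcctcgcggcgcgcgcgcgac
H2AZ1, chr4:99950276-99950375, minus strand: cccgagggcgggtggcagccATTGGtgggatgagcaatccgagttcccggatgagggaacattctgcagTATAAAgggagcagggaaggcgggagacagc
H2AZ2, chr7:44848088-44848187, minus strand: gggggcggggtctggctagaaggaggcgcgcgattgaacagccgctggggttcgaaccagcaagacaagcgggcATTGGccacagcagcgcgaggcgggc
H2AJ, chr12:14774305-14774404, plus strand: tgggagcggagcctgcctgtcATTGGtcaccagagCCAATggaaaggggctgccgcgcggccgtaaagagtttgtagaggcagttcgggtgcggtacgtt
H3-3B, chr17:75779780-75779879, minus strand: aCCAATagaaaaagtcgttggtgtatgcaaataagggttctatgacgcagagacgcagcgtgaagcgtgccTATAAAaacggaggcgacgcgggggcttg
H1-10, chr3:129316287-129316386, minus strand: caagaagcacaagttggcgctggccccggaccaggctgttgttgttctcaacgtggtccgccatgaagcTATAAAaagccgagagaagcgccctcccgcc

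H2AX and H2AJ both carry ATTGG followed after 9 bases by CCAAT. In H2AX the words begin 81 and 67 bases before the start, and in H2AJ 79 and 65 bases before it. This spacing was searched for after the sequences had been seen, and 5 of 27305 genes with a RefSeq window hold it, these 2 members included. H2AX also has TATAAA at 31 bases before the start, where H2AJ has none.

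Over the whole window of 250 bases before to 50 bases after the start, on both strands, a CCAAT box occurred in 7 of the 9 members against 39.7% of all genes. TATAAA was found in 4 members, H2AX, H2AZ1, H3-3B and H1-10, against 14% of genes. The GC box GGGCGG was in 5 members against 48.3% of genes. The cell cycle homology region, spelled TTTGAA or TTCGAA, was in H2AX, H2AZ1 and H2AZ2 against 19.5% of genes. None of the E2F spellings TTTCCCGC, TTTGGCGC, TTTCGCGC and TTTGCCGC was in a member window, against 3.99% of genes. A gene with several start sites counted once for each motif if any of its windows held it, and H3-3A and MACROH2A1 have more than one.

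One further sequence bears on how H2AX was measured, since H2AX is known to make both a polyadenylated message and a short one that ends in the histone stem-loop. The 16-base stem-loop lies at chr11:119094898-119094913 on the minus strand of GRCh38, in the only exon of the gene, 49 bases after the stop codon and 1044 bases before the end of the annotated transcript. Capitals mark the whole element.
H2AX stem-loop: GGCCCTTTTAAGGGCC
No other member held the consensus in its annotated transcripts, against 0.422% of protein-coding genes and 26 of 55 replication-dependent histone genes (47.3%). Poly(A)-selected libraries see only the long form, so the H2AX values below are those of the polyadenylated message.

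The polyadenylated replacement variants were lower in siGDF15, with H2AJ as the exception. Of the 8 members with a mean of at least 1 FPKM, the level needed for testing, 7 were called lower and 1, H2AJ, was called higher by edgeR's quasi-likelihood test at an adjusted p under 0.05. Of all 11867 genes tested, 61.4% were called, 31.4% lower and 30.0% higher. The median log2 fold change of the 8 members was -0.73, beside 0.0026 over all genes tested. H2AX and H2AZ1 fell by more than 1 on the log2 scale, which 4.78% of tested genes did with a call. The ninth gene, MACROH2A2, was below the level for testing and is described on its own. In FPKM the groups did not overlap for any of the 9, with 8 lower and 1 higher in siGDF15, beside 42.8% of tested genes apart and lower and 25.6% apart and higher. In bulk RNA, fewer cells of a type and less RNA per cell cannot be told apart.

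**Figure D1:**
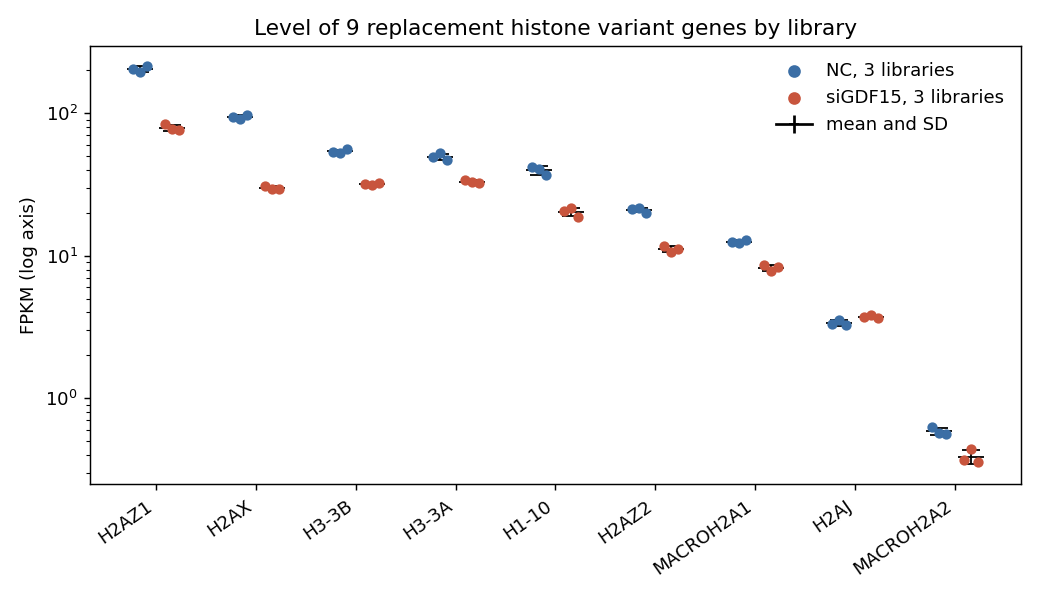
Level of each of the 9 genes in FPKM on a log axis, with one point for each of the 3 NC and 3 siGDF15 libraries and a bar for the mean and SD. The libraries of the groups do not overlap for any gene, and siGDF15 is the lower group for every gene but H2AJ, which goes from a mean of 3.38 to 3.73 FPKM.

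H2AX (ENSG00000188486) encodes the variant that is phosphorylated at DNA breaks. It lies on chromosome 11 from 119093874 to 119095465 and has a single exon. Its level was 94.1, 91.0 and 98.0 FPKM in the NC libraries and 30.9, 29.6 and 29.4 FPKM in the siGDF15 libraries. The lowest NC library was thus far above the highest siGDF15 library, and the siGDF15 mean was 31.7% of the NC mean (94.3 ± 3.53 against 29.9 ± 0.809 FPKM, SD, n = 3 each). The log2 fold change was -1.55 with a standard error of 0.050 (edgeR adjusted p = 4.2e-07). Here and below, percentages of the NC mean are of FPKM, while log2 fold changes are edgeR estimates from counts scaled by TMM. They are not the same quantity, and the falls come out somewhat larger in FPKM. Only 188 tested genes, or 1.58%, had a lower fold change.

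H2AZ1 and H2AZ2 encode the H2A.Z forms, which differ at a few residues and are placed at promoters by the SRCAP and p400 complexes. H2AZ1 (ENSG00000164032, chromosome 4 from 99948086 to 99950355, 5 exons) had the highest level of the 9 genes, at 203.9, 195.9 and 215.2 FPKM in NC and 83.4, 77.4 and 76.0 FPKM in siGDF15. The siGDF15 libraries kept 38.5% of the NC mean in FPKM. The log2 fold change from the scaled counts was -1.27 with a standard error of 0.057 (edgeR adjusted p = 9.2e-07). H2AZ2 (ENSG00000105968, chromosome 7 from 44826791 to 44848083) was expressed at 21.2, 21.6 and 20.1 FPKM in NC and at 11.7, 10.6 and 11.1 FPKM in siGDF15. Its groups were also apart, with a smaller log2 fold change of -0.81 and a standard error of 0.048 (edgeR adjusted p = 3.5e-06).

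H3-3A and H3-3B are separate genes for the same H3.3 protein. H3-3A (ENSG00000163041, chromosome 1 from 226061851 to 226072001) stood at 49.3, 52.2 and 47.2 FPKM in NC and at 34.2, 32.7 and 32.5 FPKM in siGDF15. Its log2 fold change of -0.48, standard error 0.048, was the smallest among the called falls (edgeR adjusted p = 5.7e-05). H3-3B (ENSG00000132475, chromosome 17 from 75776434 to 75779780) stood at 53.7, 52.8 and 55.7 FPKM in NC and at 31.9, 31.6 and 32.3 FPKM in siGDF15. It fell to 59.0% of the NC mean, with a log2 fold change of -0.66 and a standard error of 0.043 (edgeR adjusted p = 5.7e-06).

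The H3-3A value is less certain than the others, because processed copies of the gene share its sequence. Of the 50-base words of its transcripts, 11.7% also occur in H3P6, a copy on chromosome 2 from 174719908 to 174720318, and 9.25% occur in H3P16 on chromosome 4. The share with H3P6 is 362 words, as many as the span of that copy holds. At this length H3P6 thus has no sequence of its own, and its values are not a measurement separate from H3-3A. H3P6 was listed at 43.8 ± 2.99 FPKM in NC and 30.9 ± 1.44 FPKM in siGDF15, a log2 fold change of -0.40 with a standard error of 0.084 (edgeR adjusted p = 0.0034). H3P16 was listed at 9.19 ± 0.874 and 6.68 ± 0.474 FPKM and was not called (log2 fold change -0.35, edgeR adjusted p = 0.068). How the deposited counts divided reads between H3-3A and these copies is not stated. The share of words found in another gene was 4.0% for H3-3B, 3.00% for H2AZ2, 2.37% for H2AZ1, 0.311% for H2AX and 0 for the other 4 members.

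MACROH2A1 and MACROH2A2 encode the macroH2A proteins. MACROH2A1 (ENSG00000113648, chromosome 5 from 135334381 to 135399914) was at 12.4, 12.2 and 12.8 FPKM in NC and at 8.58, 7.84 and 8.30 FPKM in siGDF15. The groups were apart, and the log2 fold change was -0.49 with a standard error of 0.047 (edgeR adjusted p = 3.9e-05). MACROH2A2 (ENSG00000099284, chromosome 10 from 70052544 to 70112282) was at 0.624, 0.571 and 0.558 FPKM in NC and at 0.368, 0.440 and 0.356 FPKM in siGDF15, from 384 to 708 estimated counts a library. It was tested only once the level for testing was lowered to a mean of 0.1 FPKM, where its log2 fold change was -0.51 with a standard error of 0.13 (edgeR adjusted p = 0.0099). In that fit of 19360 genes, 22.1% were called lower.

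H1-10 (ENSG00000184897) encodes a linker histone that binds DNA between nucleosomes, and lies on chromosome 3 from 129314771 to 129316286 in a single exon. It was at 41.8, 40.6 and 36.8 FPKM in NC and at 20.6, 21.5 and 18.8 FPKM in siGDF15. The siGDF15 mean was 51.0% of the NC mean, with a log2 fold change of -0.87 and a standard error of 0.076 (edgeR adjusted p = 2.6e-05). The gene H1-10-AS1 on the opposite strand overlaps it and was at a mean of 0.185 FPKM in NC and 0.0719 FPKM in siGDF15. The library kit marks strand, but whether the counting used it is not stated.

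H2AJ (ENSG00000246705) moved the other way by a small amount. It has a single exon on chromosome 12 from 14774405 to 14775581. Its level was 3.3, 3.56 and 3.27 FPKM in NC and 3.70, 3.83 and 3.66 FPKM in siGDF15, from 736 to 926 estimated counts a library. The highest NC library was just under the lowest siGDF15 library, and the mean rose to 110.5% of NC. The log2 fold change was 0.25 with a standard error of 0.080 (edgeR adjusted p = 0.025). The call was lost in 11 of 15 alternative settings, where the value was still above 0, and without each library in turn except NC replicate 2 the adjusted p was above 0.05.

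**Figure D2:**
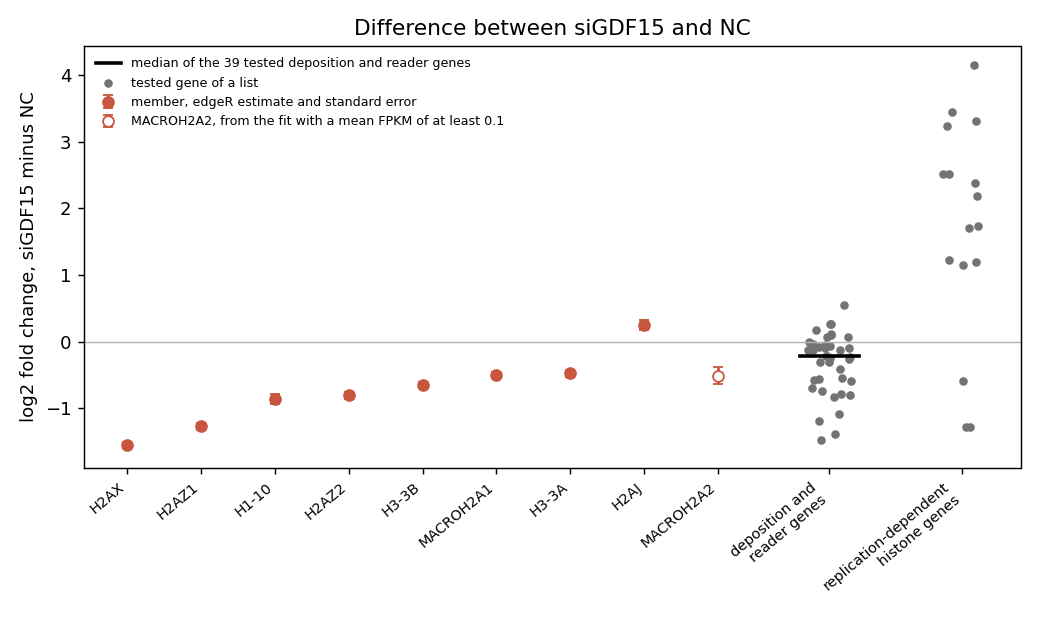
The log2 fold change of siGDF15 over NC for each member, with its standard error, and for the tested genes of the lists for deposition and reading and for replication-dependent histones. Members run from -1.55 for H2AX to 0.25 for H2AJ, and the median of the 39 tested deposition and reader genes, drawn as a line, is -0.22.

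The unequal falls changed the make-up of the replacement variant messages. The summed level of the 9 genes went from 470.5 to 489.6 FPKM across the NC libraries to between 212.4 and 225.2 FPKM in siGDF15. H2AZ1 made up 42.7 ± 1.17% of that sum in NC and 36.2 ± 0.688% in siGDF15. H2AX went from 19.6 ± 0.346% to 13.7 ± 0.0676%. The shares of the H3.3 genes went up, from 10.3 ± 0.728% to 15.2 ± 0.0712% for H3-3A and from 11.3 ± 0.0992% to 14.7 ± 0.532% for H3-3B. These are shares of a falling sum, and both H3.3 genes were themselves lower in FPKM.

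**Figure D3:**
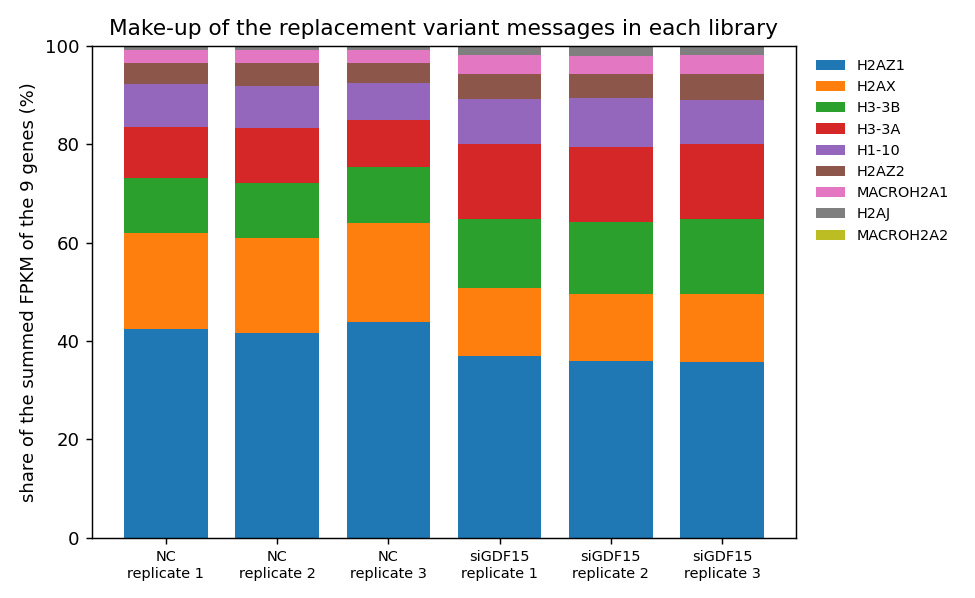
Share of the summed FPKM of the 9 genes, in percent, that each gene takes in each of the 6 libraries. H2AX takes 19.6% on average in NC and 13.7% in siGDF15, while H3-3A goes from 10.3% to 15.2%.

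The order of the levels differed between the groups among H2AX and the H3.3 genes. In NC it ran H2AZ1, H2AX, H3-3B, H3-3A, H1-10, H2AZ2, MACROH2A1, H2AJ and MACROH2A2. In siGDF15 H3-3A came after H2AZ1, followed by H3-3B and then H2AX, and the other places were the same. Neighbours in either order did not overlap across the 3 libraries of the group, although H3-3A and H3-3B came close, with 52.2 FPKM as the highest NC value of the first and 52.8 FPKM as the lowest of the second. In siGDF15 they were closer still, with 32.5 FPKM as the lowest value of H3-3A and 32.3 FPKM as the highest of H3-3B, and the order of this pair rests on H3-3A, which shares sequence with its copies.

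Ratios taken within a library do not depend on how the libraries were scaled. The log2 ratio of H2AZ1 to H2AZ2 was 3.29 ± 0.124 in NC and 2.83 ± 0.0454 in siGDF15, a difference of -0.46 (standard error 0.076, n = 3 each). H3-3A to H3-3B went from -0.13 ± 0.110 to 0.054 ± 0.0465, a difference of 0.18 with a standard error of 0.069. H2AX to H2AJ went from 4.8 ± 0.117 to 3.00 ± 0.0547, a difference of -1.80 with a standard error of 0.075. In each of these 3 ratios every siGDF15 library was on the same side of every NC library, which gives the smallest p that an exact two-sided permutation test can reach with these numbers, 0.1, or 0.133 after adjustment over the 4 ratios, so no ratio could pass 0.05. MACROH2A1 to MACROH2A2 was 4.42 ± 0.101 in NC and 4.41 ± 0.224 in siGDF15, and its groups overlapped (difference -0.0034, standard error 0.14, exact permutation p = 1).

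**Figure D4:**
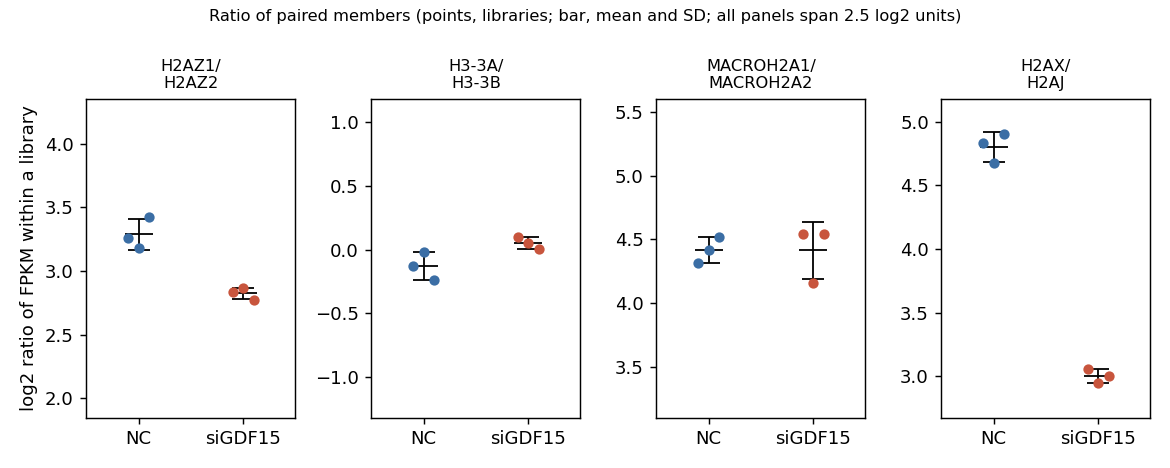
Log2 ratio of FPKM for 4 pairs of members within each library, NC and siGDF15, with the mean and SD as bars and all panels spanning the same height. The groups are apart in every panel but that of MACROH2A1 and MACROH2A2, where the means are 4.42 and 4.41.

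The genes whose pattern over the 6 libraries was closest to a member were found by the distance between mean-centred log2 CPM, counts scaled to the library size. For H2AX these were KIF22, a mitotic chromosome kinesin, at a distance of 0.0511, APOBEC3B, a cytidine deaminase, at 0.0752, and MTHFD2, a mitochondrial folate enzyme, at 0.0771. The median distance from H2AX to the tested genes was 1.93. For H2AJ they were MIDN at 0.0334, DHRS4 at 0.0462 and MTATP6P1, a nuclear copy of mitochondrial sequence, at 0.0518, with a median distance of 0.544. MTATP6P1 was listed at 942.1 to 1086.6 FPKM over the 6 libraries. Whether its counts hold reads of the mitochondrial genome was not tested. The log2 fold changes of the first set were -1.53, -1.55 and -1.59, and of the second 0.23, 0.27 and 0.25, close to those of H2AX and H2AJ. The distance includes the difference between the groups, so close fold changes follow from the choice and are no separate result. The median distances likewise depend on how far the member's own change lies from that of most genes.

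The genes that deposit, remove, modify or read these variants were more often called lower than higher. Of 41 listed, 39 were tested, and 22 were called lower, 4 higher and 13 neither, beside 31.4% lower and 30.0% higher among all genes tested, with a median log2 fold change of -0.22. For the H2A.X kinases, phosphatases and readers, 7 of 10 were called lower and 1 higher. The other groups gave 4 of 7 lower and 1 higher for H3.3 deposition, 7 of 14 lower and 2 higher for H2A.Z deposition and removal, and 4 of 5 lower for macroH2A partners and H2A exchange. None of the 3 further readers BRD2, ZMYND11 and PWWP2A was called.

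Among chaperones and remodellers, the histone H3-H4 chaperone ASF1B went from 43.9 ± 1.64 to 14.7 ± 1.44 FPKM, a log2 fold change of -1.47 (edgeR adjusted p = 2.0e-06). ANP32E, the chaperone that takes H2A.Z off chromatin, went from 54.3 ± 1.2 to 22.2 ± 1.75 FPKM, a fold change of -1.18 on the log2 scale (edgeR adjusted p = 1.6e-06). HELLS, a SNF2-family remodeller, went from 5.26 ± 0.101 to 1.88 ± 0.213 FPKM (log2 fold change -1.38, edgeR adjusted p = 2.4e-06). So the H2A.Z gene H2AZ1 and the chaperone that removes its product both fell by more than 1 on the log2 scale. The FACT subunits SSRP1 and SUPT16H had log2 fold changes of -0.83 and -0.79, both called.

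Beside H2AX itself, MDC1, the scaffold that binds phosphorylated H2A.X, went from 10.1 ± 0.384 to 4.39 ± 0.135 FPKM (log2 fold change -1.09, edgeR adjusted p = 1.8e-06). BAZ1B, a kinase of H2A.X, had a log2 fold change of -0.80 and was called. Of the kinases that act on H2A.X at breaks, PRKDC was called lower at a log2 fold change of -0.59 (edgeR adjusted p = 1.7e-05) and ATR at -0.30 (edgeR adjusted p = 0.0025). The third, ATM, was not called, with a log2 fold change of -0.073 (edgeR adjusted p = 0.54). PPP4C, a phosphatase subunit that acts on phosphorylated H2A.X, was called higher, from 36.9 ± 0.926 to 41.2 ± 0.743 FPKM (log2 fold change 0.26, edgeR adjusted p = 0.0010). TP53BP1, another reader, was not called, with a log2 fold change of 0.098 (edgeR adjusted p = 0.10). RNF8, RNF168 and EYA3 of the same group were called lower, with log2 fold changes of -0.55, -0.58 and -0.23. The transcript levels therefore cover the substrate, its kinases and its readers, and they do not measure phosphorylated H2A.X.

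Of the H3.3 depositors, ATRX was the largest rise of the list, from 2.53 ± 0.215 to 3.46 ± 0.354 FPKM (log2 fold change 0.55, edgeR adjusted p = 5.3e-04). Its partner DAXX was called lower, at a log2 fold change of -0.21 (edgeR adjusted p = 0.0043). HIRA, which deposits H3.3 at active genes, was also called lower, at -0.25 on the log2 scale (edgeR adjusted p = 0.039). That is near the threshold of 0.05, and the call of HIRA under the alternative settings was not examined singly. ZNHIT1, a subunit of the SRCAP complex, had a log2 fold change of 0.27 (edgeR adjusted p = 0.0063), and its call was lost with no filter (adjusted p = 0.057) and with total counts without TMM scaling (adjusted p = 0.053). INO80, the ATPase of the complex of that name, had 0.18 (edgeR adjusted p = 0.028), its FPKM groups overlapped, and its call was lost in 10 of 15 alternatives.

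The histone genes outside the 9 did not share one direction. CENPA, the centromeric H3 variant, went from 14.5 ± 0.518 to 4.4 ± 0.487 FPKM (log2 fold change -1.61, edgeR adjusted p = 3.2e-06). The summed level of the 59 replication-dependent histone genes listed was between 70.9 and 76.2 FPKM in NC and between 209.6 and 243.5 FPKM in siGDF15. The pair with the highest mean level over all 6 libraries, H1-2 and H2AC6, went from 10.5 ± 0.752 to 56.0 ± 6.37 FPKM and from 4.36 ± 0.328 to 44.2 ± 3.23 FPKM. That mean includes the siGDF15 libraries, and H2BC12, chosen here after its values were seen, had the highest level in NC and was called lower, from 29.7 ± 1.08 to 18.4 ± 1.8 FPKM (log2 fold change -0.59, edgeR adjusted p = 7.6e-04). H2AC20 and H2BC9, chosen in the same way, were also called lower, with log2 fold changes of -1.29 and -1.27. Both were low, from 2.13 to 0.799 FPKM and from 1.88 to 0.713 FPKM, with 22 to 87 and 14 to 71 estimated counts a library. H2BC4 and H2BC5, chosen likewise, went up from 1.56 ± 0.441 to 26.3 ± 2.13 FPKM and from 2.32 ± 0.488 to 20.5 ± 1.82 FPKM. Of the 59, 16 reached the level for testing, some of them only through siGDF15, so no count of calls is read from them. These libraries show only the polyadenylated part of such messages. In the NC libraries the 9 replacement variants summed to more than the replication-dependent genes, and in siGDF15 the sums were of similar size.

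Proliferation markers moved with the members. All 6 of MKI67, TOP2A, PCNA, CCNB1, CDK1 and MCM2 were called lower, with log2 fold changes from -1.89 to -1.20, and their summed level was 432.3 to 441.6 FPKM in NC and 138.6 to 160.5 FPKM in siGDF15. The mitochondrial share of counts was 6.39 to 6.78% in NC and 8.53 to 9.17% in siGDF15. Their part in the result was not tested. The leukocyte markers PTPRC and CD3E were at or near 0 in both groups, CD68, which is not limited to leukocytes, had a mean of 18.3 FPKM in NC and 16.9 FPKM in siGDF15, and endothelial markers summed to 0.198 FPKM at most. Fibroblast markers summed to 11.7 to 16.1 FPKM in NC and 12.4 to 14.5 FPKM in siGDF15.

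**Figure D5:**
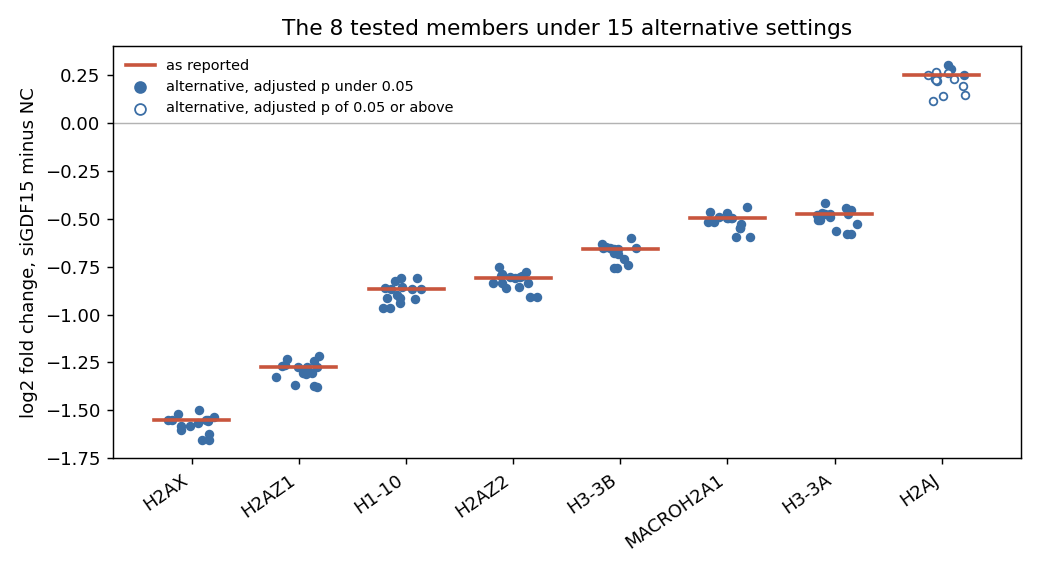
Log2 fold change of the 8 tested members as reported (red line) and under 15 alternative settings (points, open where the adjusted p was 0.05 or above). The 7 falls keep their call at every point, from -1.65 to -1.50 for H2AX, and H2AJ lies between 0.11 and 0.30 with open points in 11 settings.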

How the data were processed

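Poly(A)-selected RNA of 6 libraries, 3 of each group, was sequenced after dUTP strand marking. The submitters' processing notes name fastp, HISAT2, StringTie, edgeR and GRCh38. Their versions, the annotation and the strand setting are not given in the sources used here. The authors deposited FPKM and estimated counts per gene. Columns with the authors' own fold changes and p-values were not used.

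Estimated counts were rounded, and genes with a mean of at least 1 FPKM were kept. TMM scaling and the quasi-likelihood test of edgeR 4.0.16 in R 4.3.3 compared the groups, with Benjamini-Hochberg adjustment over all tested genes and a threshold of 0.05. Standard errors of edgeR log2 fold changes were calculated back from that test, as the absolute fold change over the square root of its F statistic. The edgeR steps were run on simulated counts in which few genes were changed, in about equal numbers up and down. With 61.4% of genes called in the real data, that run does not test the scaling used here. Ratios were tested by exact permutation with scipy 1.17.1. Alternatives were DESeq2 1.42.0, limma 3.58.1 on log2(FPKM + 0.1) and log2(FPKM + 1), other scalings and filters, a replicate block and each library left out. Same-numbered libraries deviated together with correlations of 0.028, -0.075 and 0.046, so the numbers were not taken as pairs. The members and lists were chosen with earlier results of these data known. Named were the members, GDF15, the 4 deposition and reader genes with the smallest adjusted p in each direction with others a sentence turns on, other variants and copies at 1 FPKM or more, the 2 replication-dependent genes of highest level, and the 3 nearest genes of H2AX and H2AJ. Promoter windows came from RefSeq and transcripts from GENCODE 29. Some items that the rule names are not reported here.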

Additional observations from a re-analysis of the deposited data

How the results depend on the processing

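The 7 members called lower kept their call and direction in all 15 alternatives, and 7 to 8 members were called lower. The 1 call upward, H2AJ, went to 0 with limma on log2(FPKM + 0.1) (log2 difference 0.14, adjusted p = 0.086) and log2(FPKM + 1) (0.11, 0.089), a filter of 0.1 FPKM (0.22, 0.052), no filter (0.20, 0.14) and total counts without TMM (0.15, 0.14). Leaving out single libraries gave 0 to 1 calls upward, with a log2 fold change of H2AJ between 0.22 and 0.28. With the replicate block, H2AJ stood at 0.25 with an edgeR adjusted p of 0.053, so 0 members were called higher. The block moved calls over all genes from 7286 to 6906, and not every library correlated best with its own number. Without TMM scaling, 36.6% of all calls were higher, against 48.9% as reported and 55.8% with medians set equal, and the median of all tested genes moved to -0.099. Deposition and reader genes called higher went from 4 to 2 with no filter and without TMM and to 6, with 18 called lower, when medians were set equal, and calls lower ranged from 18 to 26. Replication-dependent histone genes called higher went from 13 to 21 with the filter of 0.1 FPKM and 3 were called lower in every setting, counts from which nothing is read because some of these genes pass a filter only through siGDF15. The difference of MACROH2A1 to MACROH2A2 turned to 0.048 without NC replicate 3 and 0.13 without siGDF15 replicate 2, with a range of -0.069 to 0.13 when single libraries were left out, and it was -0.35 with 1 FPKM added to both genes (exact permutation p = 0.1, the smallest possible). The added 1 FPKM is above every library value of MACROH2A2, 0.356 to 0.624 FPKM, so that value is not the ratio of the measured levels. The causes of the other changes were not tested. H3P16 passed the threshold in both limma fits and without TMM. With 3 libraries a group, an exact permutation test cannot go below 0.1.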
